A study of Mus musculus with 18 samples.

Results

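The Toll-like receptor genes measured in bone marrow-derived macrophages (BMDM), together with Cd14, are described here. The members were chosen by gene name and are Tlr1, Tlr2, Tlr3, Tlr4, Tlr6, Tlr7, Tlr8, Tlr9, Tlr13 and Cd14, 10 of the 31053 genes listed. All 10 passed the filter on low counts, which left 12290 genes for testing. The experiment used bulk RNA-Seq of 18 libraries from 6 mice on a C57Bl/6J background, 12 weeks old. In the knockout (KO, Slc7a7-/-), the gene of Slc7a7, an amino acid transporter subunit, was targeted through LysM-Cre, which is driven from the Lyz2 locus of myeloid cells. The wild type (WT, Slc7a7+/+) served as the corresponding control. BMDM of each mouse received vehicle (control), acetylated LDL (Ac-LDL, 50 µg/mL) or oxidised LDL (Ox-LDL, 100 µg/mL) for 24 h. This gave 6 groups of 3 mice, in which each mouse contributed 1 library per medium. Whether the control mice carried the Cre or floxed alleles is not given in the sources used here.

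Toll-like receptors are membrane proteins that recognise microbial molecules and, for several of them, products of damaged cells. TLR2 pairs with TLR1 or TLR6 at the cell surface to bind lipopeptides, and TLR4 binds lipopolysaccharide, which CD14 hands over to it and its partner MD-2. TLR3, TLR7, TLR8, TLR9 and TLR13 sit in endosomes and detect nucleic acids. In macrophages, ligand binding recruits adaptor proteins, activates kinases and leads to NF-kB and interferon regulatory factor activity. Modified LDL is taken up through scavenger receptors such as CD36, which can also act beside TLR2, TLR4 and TLR6.

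In GRCm38 the members are protein-coding genes of the GENCODE annotation. Tlr2 (ENSMUSG00000027995) was at chr3:83836272-83841767 on the minus strand. Tlr1 (ENSMUSG00000044827, chr5:64924679-64933563) and Tlr6 (ENSMUSG00000051498, chr5:64952031-64960097) were neighbours, 18468 bases apart. They also shared sequence, and 20% of the 31-base words of Tlr1 transcripts and 16.6% of those of Tlr6 occurred in transcripts of other genes. Tlr8 (ENSMUSG00000040522, chrX:167242696-167264329) and Tlr7 (ENSMUSG00000044583, chrX:167304929-167330558) were 40600 bases apart, and Tlr13 (ENSMUSG00000033777, chrX:106143204-106160493) was on the same chromosome. Tlr3 (ENSMUSG00000031639, chr8:45395665-45411080) overlapped Gm45542 on the opposite strand. Tlr4 (ENSMUSG00000039005, chr4:66827584-66930284), Tlr9 (ENSMUSG00000045322, chr9:106222598-106226883) and Cd14 (ENSMUSG00000051439) overlapped no other gene. All values are for whole genes, exons only.

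The sequences before the start sites of Tlr2, Tlr1 and Tlr13 are shown because these are the Toll-like receptor genes that passed a test with a modified LDL in the fit without a block for the mouse. They come from the RefSeq promoter table on GRCm38.p6, which holds windows for Tlr1, Tlr2, Tlr3, Tlr6, Tlr8, Tlr9 and Tlr13. Each window was 250 bases before a RefSeq start site, and bases inside the GENCODE gene were left off (159 for Tlr2, 5 for Tlr1 and 71 for Tlr13). They lay at chr3:83841768-83841858 on the minus strand (Tlr2), chr5:64933564-64933808 on the minus strand (Tlr1) and chrX:106143025-106143203 on the plus strand (Tlr13), and capitals mark matches to the motifs searched.
Tlr2: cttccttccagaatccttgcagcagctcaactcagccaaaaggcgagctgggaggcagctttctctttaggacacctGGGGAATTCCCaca
Tlr1: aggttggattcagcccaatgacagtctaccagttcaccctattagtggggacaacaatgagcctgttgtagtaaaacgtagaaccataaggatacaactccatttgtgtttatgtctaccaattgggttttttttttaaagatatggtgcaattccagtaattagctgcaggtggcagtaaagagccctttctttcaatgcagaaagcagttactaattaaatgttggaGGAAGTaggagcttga
Tlr13: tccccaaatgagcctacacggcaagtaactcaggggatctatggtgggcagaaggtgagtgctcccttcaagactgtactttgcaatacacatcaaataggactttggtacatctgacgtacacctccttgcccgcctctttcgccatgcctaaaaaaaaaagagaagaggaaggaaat

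The motifs searched on both strands were the NF-kB consensus, GGAAGT (ETS, the core bound by PU.1), TGANTCA (AP-1), TGACGTCA (CRE), GGGCGG (Sp1), AGGTCA (nuclear receptor half-site) and, by its usual consensus, ISRE. The Tlr2 window held overlapping matches to the NF-kB consensus at -173 and -172 from the RefSeq start, a motif found in 3.9% of 32851 RefSeq windows. The window of Tlr3, which passed no test of LDL against control, also held an NF-kB match, at -211. This consensus was adopted after a narrower spelling had given no match in the Tlr2 window. In the bases not printed, the Tlr2 window also held GGGCGG at -69 and -48 (32.7% of windows), GGAAGT at -30 (19.7%) and the nuclear receptor half-site at -15 (14%). The Tlr1 window shown held GGAAGT at -21, while a second Tlr1 window, at chr5:64932700-64932949 inside the GENCODE gene, held none of the motifs. The Tlr13 and Tlr8 windows held none either. Of the windows not shown, 1 of Tlr6 held GGAAGT at -62 and ISRE at -116 and -110. That of Tlr9 held TGANTCA at -58 and the nuclear receptor half-site at -221. A match describes the letters only, and binding was not measured.

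The libraries held between 1043492 and 1768816 counts (median 1466145), so that 3 counts corresponded to 1.66 to 2.84 CPM, the unit of counts scaled to a common library size. Slc7a7 checked the labels: its mean was 14.9 ± 5.41 CPM (SD, n = 3) in WT control and 6.58 ± 3.20 in KO control, 25.3 ± 2.74 and 3.27 ± 1.69 in Ac-LDL medium, and 28.0 ± 1.81 and 9.91 ± 1.15 in Ox-LDL medium, with no overlap between the genotypes in any medium. Slc7a7 RNA was thus reduced in KO but not absent. With the 3 libraries of each mouse summed it was lower in KO (log2 fold change -1.80, edgeR quasi-likelihood test, adjusted p = 0.0112). The 6 macrophage markers (Adgre1, Csf1r, Cd68, Itgam, Mertk and Fcgr1) summed to 3320 to 6561 CPM per library, against at most 1.73 for 3 plasmacytoid dendritic cell markers, 3.47 for 4 conventional dendritic cell markers, 212 for 7 neutrophil markers, 131 for 3 monocyte markers and 26 for 4 stromal markers. Cd79a and Ms4a1, which mark B cells, and Siglech, Ccr9, Klk1, Ccr7, Xcr1, Ly6g and Elane had at most 3 counts in every library. WT mouse 1 stood apart, with 7 to 18 counts of Fcgr1 per library, and 2 mice (WT mouse 2 and KO mouse 1) had 4374 to 6821 counts of Xist per library, against at most 2 in the other mice. Results were also computed without each of these.

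Corrected for exon length, Cd14 had the highest mean of the members in every group, and the receptors fell into a higher and a lower set. In WT Ac-LDL and WT Ox-LDL, however, the Cd14 libraries overlapped those of Tlr13 (means of 130 and 80.5, and of 104 and 79.1). In WT control, Cd14 was at 227 CPM per kilobase of exon, Tlr2 at 91.8, Tlr13 at 62.2, Tlr8 at 41.3, Tlr7 at 36.8 and Tlr4 at 32.0. Tlr1 was at 7.08, Tlr6 at 4.11, Tlr9 at 3.89 and Tlr3 at 2.47. The libraries of Tlr8 and Tlr7, of Tlr7 and Tlr4, of Tlr6 and Tlr9, and of Tlr9 and Tlr3 overlapped. With the union length, these neighbours in the order did not differ beyond their spread. Over all 18 libraries, dividing by the longest coding transcript instead put Tlr8 (47.7) above Tlr2 (47.4) and Tlr4 (46.4) above Tlr7 (40.2). The union length gave the reverse for both pairs. Group means and overlaps are given for the union length only. The place of Tlr2 in that order also depended on the medium. In WT Ox-LDL it was at 24 CPM per kilobase, below Tlr8 (50.7), Tlr7 (42.3) and Tlr4 (32.9), although its libraries overlapped those of Tlr4. In KO Ox-LDL it was at 20.2, and its libraries lay below those of Tlr7 (35.5). Tlr5, the flagellin receptor, had 0 to 6 counts per library, and Tlr11 and Tlr12 did not pass the filter.

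**Figure D1:**
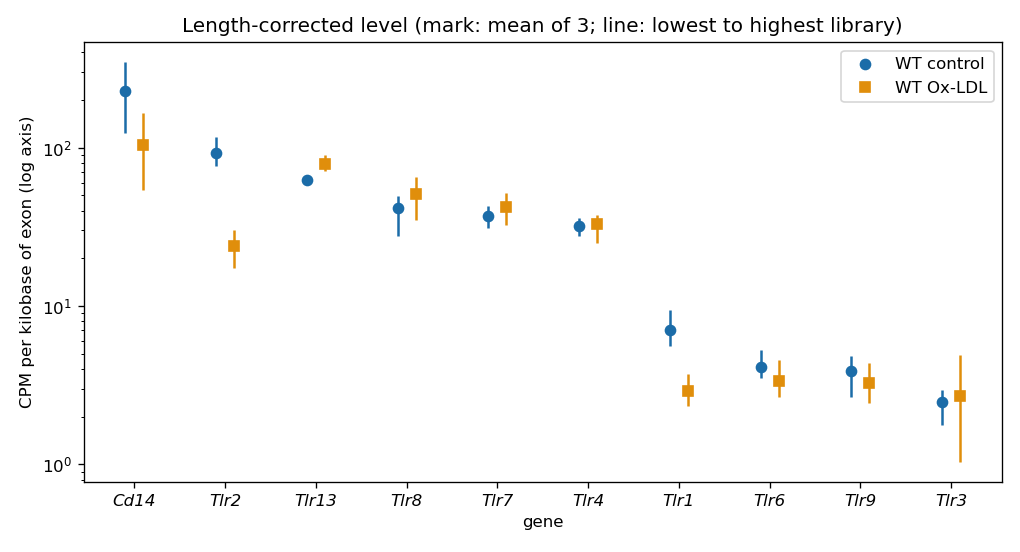
Mean level of each member in CPM per kilobase of exon (log axis) in WT control (circles) and WT Ox-LDL (squares), with lines from the lowest to the highest of 3 libraries. Cd14 was at 227 and Tlr3 at 2.47 in WT control, and Tlr2 was at 91.8 in WT control and 24 in WT Ox-LDL.

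The first question was how loading with modified LDL altered the receptors. Tlr2 was lower with both kinds of LDL and in both genotypes, and Tlr1, its partner, and Cd14 were lower with Ox-LDL when both genotypes were averaged. With the mouse as a block, Cd14 was lower with both kinds of LDL in each genotype, and Tlr1 was lower with Ox-LDL in each. Tlr13 was higher. Tlr4, Tlr6, Tlr3, Tlr7 and Tlr9 passed no test of LDL against control in any fit described here.

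Tlr2 had 232, 246 and 351 CPM in the 3 WT control libraries, 123, 133 and 153 in Ac-LDL medium, and 52.0, 74.1 and 90.6 in Ox-LDL medium. In KO, it had 234, 176 and 195 CPM in control, 125, 104 and 100 in Ac-LDL medium, and 77.5, 49.3 and 55.5 in Ox-LDL medium. In each genotype every Ac-LDL library was below every control library, and every Ox-LDL library below every Ac-LDL library. Of all genes tested, 5.48% in WT and 9.37% in KO separated downward from control in Ac-LDL medium, and 6.17% and 11.6% did so in Ox-LDL medium. With Ox-LDL, Tlr2 fell by 1.92 on the log2 scale in WT (SE 0.19, edgeR adjusted p = 6.6e-07) and by 1.74 in KO (SE 0.20, edgeR adjusted p = 4.3e-06), that is 3.79-fold and 3.35-fold. With Ac-LDL it fell by 1.02 in WT (SE 0.18, edgeR adjusted p = 0.0047) and by 0.88 in KO (SE 0.19, edgeR adjusted p = 0.0205). Leaving out WT control replicate 3 ended the WT call with Ac-LDL (edgeR adjusted p = 0.0800), and the KO call held in 2 of the 6 fits without 1 library (without KO Ac-LDL replicate 1, 0.0362, and KO control replicate 2, 0.0323) and was lost without each of the other 4 (up to 0.212, without KO Ac-LDL replicate 3).

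Counted by comparison, 1 member passed the test in WT with Ox-LDL (Tlr2), against 1.34% of all genes tested. In KO with Ox-LDL, 2 passed (Tlr2 lower and Tlr13 higher), against 2.32%. With Ac-LDL, Tlr2 was the 1 member called in WT, against 0.472%, and in KO, against 0.521%. Averaged over both genotypes, 4 members passed with Ox-LDL, against 5.39% of genes tested, and 2 with Ac-LDL, against 2%. The median log2 fold change of the 10 members was 0.00 with Ox-LDL and 0.07 with Ac-LDL, beside 0.01 and -0.01 over all genes tested. With the mouse as a block, 4 members passed in WT with Ox-LDL (4.39% of genes), 5 in KO with Ox-LDL (7.18%), 3 in WT with Ac-LDL (2.16%), 2 in KO with Ac-LDL (2.5%), 5 in the Ox-LDL average (11.3%) and 4 in the Ac-LDL average (5.85%).

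**Figure D2:**
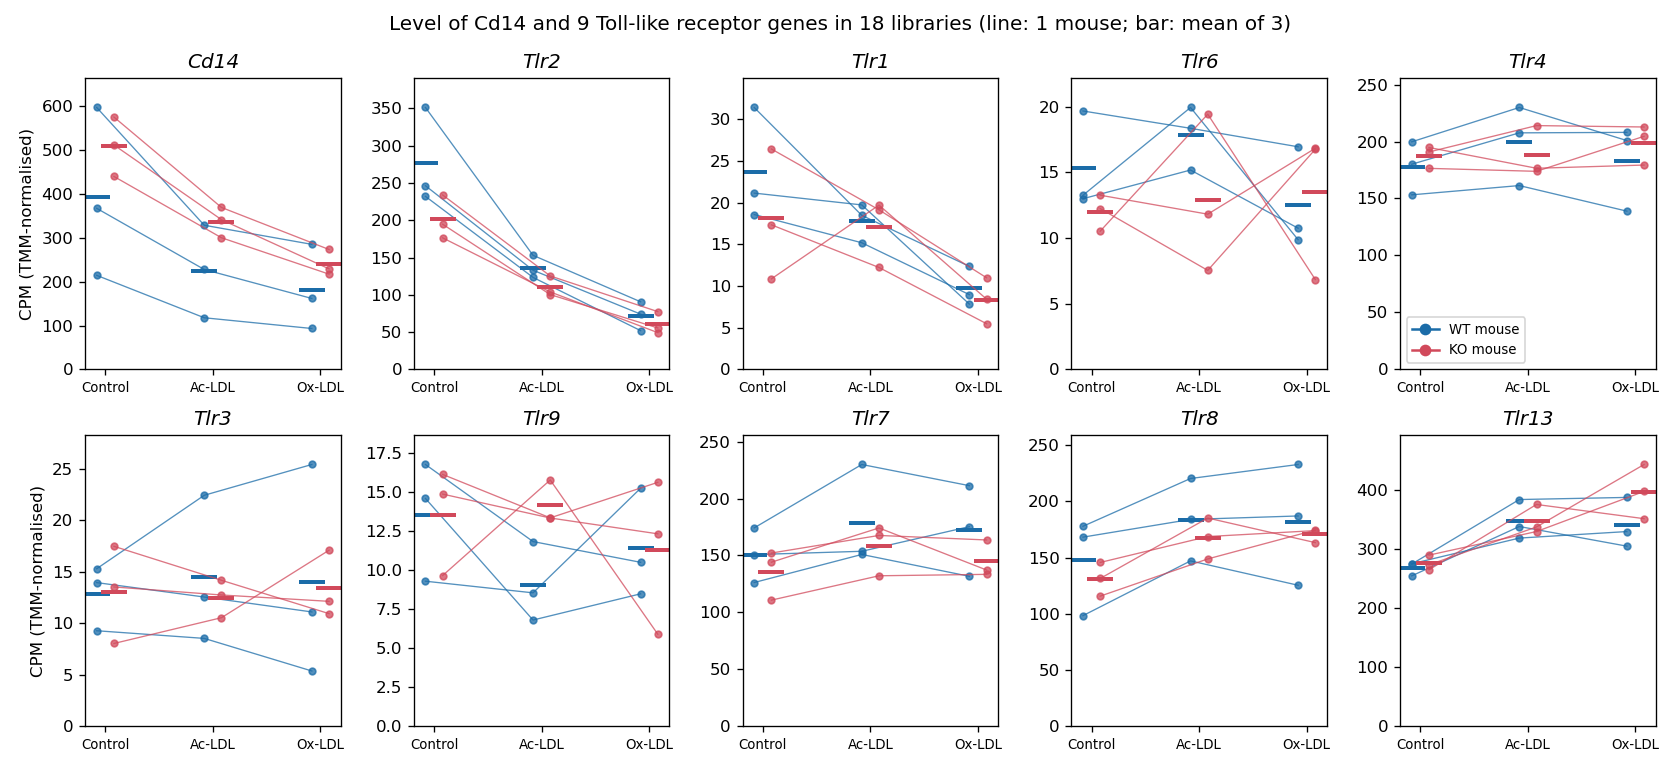
Normalised counts (CPM, linear axes from 0) of Cd14 and the 9 receptor genes by medium; each line joins the 3 libraries of 1 mouse (blue WT, red KO) and the bars are means of 3. Tlr2 and Cd14 run downward in 6 of 6 mice and Tlr13 and Tlr8 lie above control in 6 of 6 mice with each LDL. The share of all genes that did so was not computed.

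Tlr1, which binds triacylated lipopeptides together with TLR2, had few counts, 8 to 45 per library. It had 18.6, 31.4 and 21.1 CPM in WT control and 8.96, 12.3 and 7.82 in WT Ox-LDL, and the groups did not overlap, a downward separation seen in 6.17% of genes tested. In KO it had 10.9, 17.3 and 26.4 CPM in control and 8.42, 5.47 and 11 with Ox-LDL, which overlapped. Averaged over genotypes it fell by 1.19 on the log2 scale with Ox-LDL (SE 0.24, edgeR adjusted p = 0.0026) and was lower in 6 of 6 mice. Within a genotype it passed with the mouse as a block (edgeR adjusted p = 0.0045 in WT and 0.0157 in KO, against 0.0578 and 0.109 without the block), and also without control replicate 1 of either genotype (0.0349 and 0.0492). With Ac-LDL it was at 15.2, 18.5 and 19.7 CPM in WT and 19.7, 12.2 and 19.1 in KO, and the averaged difference from control was -0.26 (95% interval -0.71 to 0.19, edgeR adjusted p = 0.729).

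Tlr6, the other partner of TLR2, had 10 to 35 counts per library and group means from 12 to 17.8 CPM. Its averaged difference from control was -0.06 with Ox-LDL (95% interval -0.58 to 0.46) and 0.17 with Ac-LDL (-0.34 to 0.68). Since reads can be split between Tlr1 and Tlr6, their counts were also summed, and the sum was lower with Ox-LDL in the average of both genotypes (log2 fold change -0.64, edgeR adjusted p = 0.0305). This was a smaller fall than that of Tlr1 alone. Within a genotype the sum did not pass with Ox-LDL (-0.81 in WT and -0.46 in KO, edgeR adjusted p = 0.137 and 0.479).

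Cd14, the co-receptor that passes lipopolysaccharide to TLR4, varied widely between the WT mice and was lower in every mouse with either LDL. The 3 WT mice had 214, 597 and 367 CPM in control, 118, 329 and 228 in Ac-LDL medium, and 93.2, 285 and 162 in Ox-LDL medium, so that the groups overlapped. In KO it had 440, 512 and 576 CPM in control, 300.2, 342 and 369 in Ac-LDL medium, and 217, 229 and 273 in Ox-LDL medium, with no overlap between any of the 3 media. Of all genes tested in KO, 9.37% separated downward from control with Ac-LDL and 11.6% with Ox-LDL. Downward from Ac-LDL to Ox-LDL it was 6.93%. Read within each mouse, the change was narrow, from -1.19 to -1.01 on the log2 scale with Ox-LDL and from -0.86 to -0.55 with Ac-LDL in the 6 mice. Averaged over genotypes, Cd14 fell by 1.10 with Ox-LDL (SE 0.23, edgeR adjusted p = 0.0039), and its difference with Ac-LDL was -0.70 (SE 0.23, edgeR adjusted p = 0.149, and 0.0238 without WT control replicate 1). With the mouse as a block it was lower in all 4 comparisons of an LDL with control (edgeR adjusted p = 4.3e-11 and 1.5e-11 with Ox-LDL in WT and KO, and 2.4e-07 and 1.3e-05 with Ac-LDL). WT mouse 1 had the lowest Cd14 in each medium, and also low Fcgr1; whether they share a source was not tested.

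Tlr4 itself, the lipopolysaccharide receptor, stayed between 139 and 230 CPM in all 18 libraries. Its averaged difference from control was 0.07 with Ox-LDL (95% interval -0.16 to 0.29) and 0.09 with Ac-LDL (-0.14 to 0.31), the narrowest intervals of the surface receptors. Ly96, which encodes MD-2, had group means of 6.77 to 10.4 CPM and passed no test.

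Tlr13, the mouse endosomal receptor for bacterial ribosomal RNA, was the 1 member called higher in the fit without the block. It had 254, 274 and 275 CPM in WT control, 338, 383 and 318 in Ac-LDL medium and 305, 387 and 329 in Ox-LDL medium. In KO it had 265, 273 and 289 CPM in control, 375, 337 and 329 in Ac-LDL medium and 351, 443 and 397 in Ox-LDL medium. In both genotypes all LDL libraries lay above all control libraries, an upward separation seen in 5.67% of genes tested in WT and 10.1% in KO with Ox-LDL, and in 5.5% and 7.32% with Ac-LDL. The rise was 0.53 on the log2 scale in KO with Ox-LDL (SE 0.13, edgeR adjusted p = 0.0224), 0.44 in the Ox-LDL average (SE 0.09, edgeR adjusted p = 0.0030) and 0.35 in the Ac-LDL average (SE 0.09, edgeR adjusted p = 0.0373). In WT the difference of 0.35 with Ox-LDL passed with the mouse as a block (edgeR adjusted p = 0.0343, against 0.278), as did that of 0.37 with Ac-LDL (0.0390, against 0.381). Of the 6 fits without 1 library, the KO call with Ox-LDL held in that without KO Ox-LDL replicate 1 (edgeR adjusted p = 0.0192) and was lost in the other 5 (up to 0.164, without KO Ox-LDL replicate 2). Of 12 such fits, the call in the Ac-LDL average held in that without WT Ac-LDL replicate 3 (0.0385) and was lost in the other 11 (up to 0.130, without WT Ac-LDL replicate 2).

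Tlr8 and Tlr7, neighbours on the X chromosome that encode receptors for single-stranded RNA, ran above control in most mice. Tlr8 had 98.4, 168 and 178 CPM in WT control and 125, 187 and 233 with Ox-LDL, and 131, 116 and 146 in KO control and 163, 174 and 174 with Ox-LDL. It was above control in 6 of 6 mice with each LDL, and its averaged difference of 0.34 with Ox-LDL passed the test with the mouse as a block (edgeR adjusted p = 0.0016, against 0.205) or without WT Ox-LDL replicate 1 (0.0393). That of 0.33 with Ac-LDL also passed with the block (0.0042, against 0.332). In KO alone, Tlr8 passed with Ox-LDL under the block (log2 fold change 0.39, edgeR adjusted p = 0.0179). Tlr7 had group means of 136 to 178 CPM. It was above control in 6 of 6 mice with Ac-LDL and 5 of 6 with Ox-LDL, by 0.23 and 0.15 on average. Neither difference passed (edgeR adjusted p = 0.531 and 0.638, and 0.0710 and 0.235 with the mouse as a block). The 2 mice with Xist counts had means of 330 and 348 CPM of Tlr13 over the media, within the range of the other mice (299 to 351), and the same held for Tlr7 and Tlr8.

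Tlr3, the receptor for RNA duplexes, and Tlr9, which detects CpG DNA, were near the limit of these libraries. Tlr3 had 6 to 39 counts per library and Tlr9 had 7 to 27. The averaged difference from control with Ox-LDL was 0.10 for Tlr3 (95% interval -0.51 to 0.70) and -0.26 for Tlr9 (-0.75 to 0.24). The data allow changes anywhere inside these intervals.

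**Figure D3:**
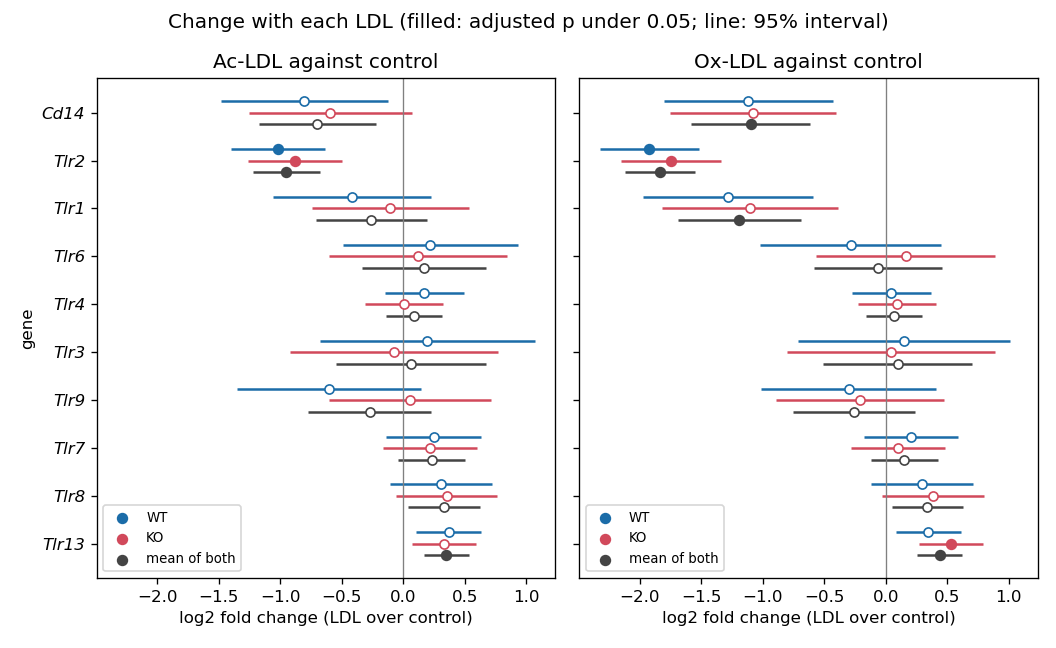
Log2 fold change (LDL over control) of each member with 95% intervals, for Ac-LDL (left) and Ox-LDL (right), in WT, in KO and as the mean of both; filled marks passed the edgeR test. Tlr2 is filled in all 6 rows, from -1.92 to -0.88, and Tlr13 lies right of 0, from 0.33 to 0.53.

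The comparison of both kinds of LDL set unequal doses side by side, 100 µg/mL of Ox-LDL and 50 µg/mL of Ac-LDL. Tlr2 was 0.90 lower on the log2 scale with Ox-LDL than with Ac-LDL in WT (SE 0.20) and 0.86 lower in KO (SE 0.20), with no overlap of the libraries in either, a downward separation seen in 4.44% and 6.93% of genes tested. Neither passed (edgeR adjusted p = 0.325 and 0.200), in comparisons where 0.00814% and 0.0651% of genes tested did. With the mouse as a block Tlr2 passed in both (0.732% and 1.38% of genes called), and Cd14 in KO (edgeR adjusted p = 0.0013). Tlr1 differed by -0.87 in WT and -1.0 in KO, also without overlap, and did not pass (edgeR adjusted p = 0.908 and 0.679).

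The second question was whether the knockout of Slc7a7, which left part of its RNA, altered the receptors. No member passed the test of KO against WT in any of the 3 media (control, Ac-LDL and Ox-LDL), where 0.00814%, 0.0163% and 0.00814% of genes tested did. At an unadjusted p under 0.05, which 4%, 4.89% and 4.78% of genes tested reached in the 3 media, there was 1 member, Tlr2 in control medium, at 277 ± 65.1 CPM in WT and 202 ± 29.4 in KO (SD, n = 3; log2 fold change -0.46, 95% interval -0.83 to -0.09, edgeR adjusted p = 1). The Tlr2 libraries of WT and KO overlapped in all 3 media. Cd14 lay higher in KO by 0.37, 0.58 and 0.40 in the 3 media (edgeR adjusted p = 1, 0.990 and 0.936). Summed over the 3 libraries of each mouse, the members differed between -0.33 (Tlr2) and 0.47 (Cd14), and none passed (edgeR adjusted p from 0.980, with 0.00789% of genes called). DESeq2 also called no member between genotypes.

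The LDL response also did not differ detectably by genotype. The difference in response, KO minus WT, was 0.18 for Tlr2 with Ox-LDL (95% interval -0.39 to 0.75) and 0.13 with Ac-LDL (-0.40 to 0.67). For Cd14 it was 0.03 with Ox-LDL (-0.92 to 0.99), and for Tlr13 it was 0.18 (-0.19 to 0.55). These intervals are from the fit without a block for the mouse, and those with the block were narrower. For Ox-LDL the block gave 0.18 for Tlr2 (-0.16 to 0.52), 0.05 for Cd14 (-0.21 to 0.31) and 0.18 for Tlr13 (-0.10 to 0.46). In the edgeR fit with the filter and without a block, no gene among those tested passed for either LDL. At an unadjusted p under 0.05 there were 327 for Ac-LDL and 338 for Ox-LDL (2.66% and 2.75%), and no member was among these. With the mouse as a block, 3 genes were higher and 2 lower for Ac-LDL (0.0407%), and none passed for Ox-LDL. Without the filter, 0.0812% of genes passed for Ac-LDL and 0.0676% for Ox-LDL. No member was called in either setting. DESeq2 called 1 gene for Ac-LDL and 0 for Ox-LDL, again no member.

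**Figure D4:**
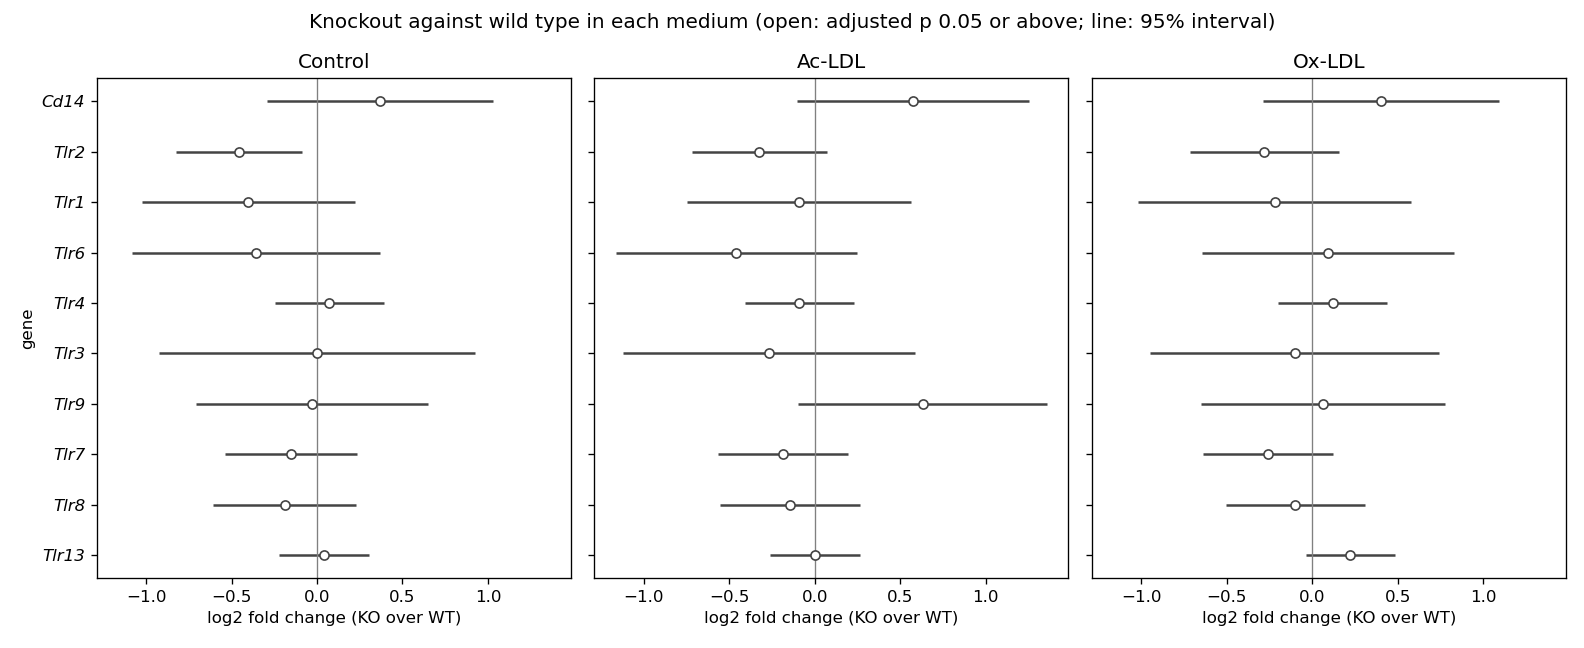
Log2 fold change (KO over WT) of each member in control, Ac-LDL and Ox-LDL medium, with 95% intervals. No mark is filled, and the values lie between -0.46 and 0.63.

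The other genes of the pathway were 48 genes, of which 45 passed the filter. In WT with Ox-LDL 1 was higher and 4 were lower, against 1.34% of all genes tested that passed, and in KO with Ox-LDL 1 was higher and 4 lower, against 2.32%. With Ac-LDL none passed in WT, against 0.472%, and 1 (lower) in KO, against 0.521%. Averaged over genotypes, 1 was higher and 9 lower with Ox-LDL, against 5.39%, and 1 higher and 4 lower with Ac-LDL, against 2%. The median of the 45 was -0.15 with Ox-LDL and -0.09 with Ac-LDL, beside 0.01 and -0.01 over all genes tested. With the mouse as a block the counts with Ox-LDL were 1 higher and 8 lower in WT (4.39% of genes called) and 1 and 6 in KO (7.18%). With Ac-LDL they were 2 and 3 in WT (2.16%) and 1 and 4 in KO (2.5%). The averages gave 2 and 11 with Ox-LDL (11.3%) and 2 and 6 with Ac-LDL (5.85%).

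Among co-receptors and accessory proteins, Cd36, the scavenger receptor for oxidised LDL, was the gene that rose. It went from 394 ± 11.1 CPM in WT control to 646 ± 94.4 in Ac-LDL medium and 1194 ± 209 in Ox-LDL medium, and from 496 ± 55.8 to 751 ± 157 and 1520 ± 460 in KO (SD, n = 3). The rise with Ox-LDL was 1.60 on the log2 scale in WT and 1.62 in KO (edgeR adjusted p = 2.1e-05 and 1.3e-05), and averaged with Ac-LDL it was 0.66 (edgeR adjusted p = 0.0085). Among 9 genes for trafficking and processing of the endosomal receptors, Unc93b1, which carries them out of the endoplasmic reticulum, fell by 0.37 in the Ox-LDL average (edgeR adjusted p = 0.0427).

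None of the 6 adaptor genes passed the test. Myd88, the adaptor of most Toll-like receptors, had a log2 fold change of -0.37 in the Ox-LDL average (edgeR adjusted p = 0.0725), and passed with the mouse as a block (0.0128), as did Pik3ap1 (0.0028). Among the 13 kinases and ubiquitin ligases, 3 were lower in the Ox-LDL average. Ikbke, a kinase that activates interferon regulatory factors, fell by 1.19 (edgeR adjusted p = 6.0e-05), Traf3, an adaptor ligase of the interferon branch, by 0.57 (edgeR adjusted p = 0.0036) and Irak2, a kinase downstream of MyD88, by 0.48 (edgeR adjusted p = 0.0140). Traf3 was also lower in the Ac-LDL average, by 0.49 (edgeR adjusted p = 0.0242).

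Of the 5 inhibitors, 2 were lower with each LDL in the averages. Tnfaip3, the NF-kB feedback inhibitor A20, fell by 1.12 with Ox-LDL and 0.71 with Ac-LDL (edgeR adjusted p = 0.00020 and 0.0269), and Irak3, which restrains the IRAK kinases, by 0.51 and 0.63 (edgeR adjusted p = 0.0198 and 0.0081). Of the 6 genes for downstream factors, Nfkbia, which encodes the NF-kB inhibitor IkB alpha and is itself induced by NF-kB, went from 179 ± 27.8 CPM in WT control to 116 ± 25 in Ac-LDL medium and 90.8 ± 9.75 in Ox-LDL medium, and from 183 ± 11.8 to 112 ± 7.97 and 93.6 ± 3.05 in KO. It passed in WT and KO with Ox-LDL and in KO with Ac-LDL (edgeR adjusted p = 0.00025, 0.00023 and 0.0149). Irf7 fell by 1.65 and Irf5 by 0.34 in the Ox-LDL average (edgeR adjusted p = 0.0081 and 0.0308), both interferon regulatory factors used by endosomal receptors. Counts of Irf7 were few, from 3 to 95 per library.

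**Figure D5:**
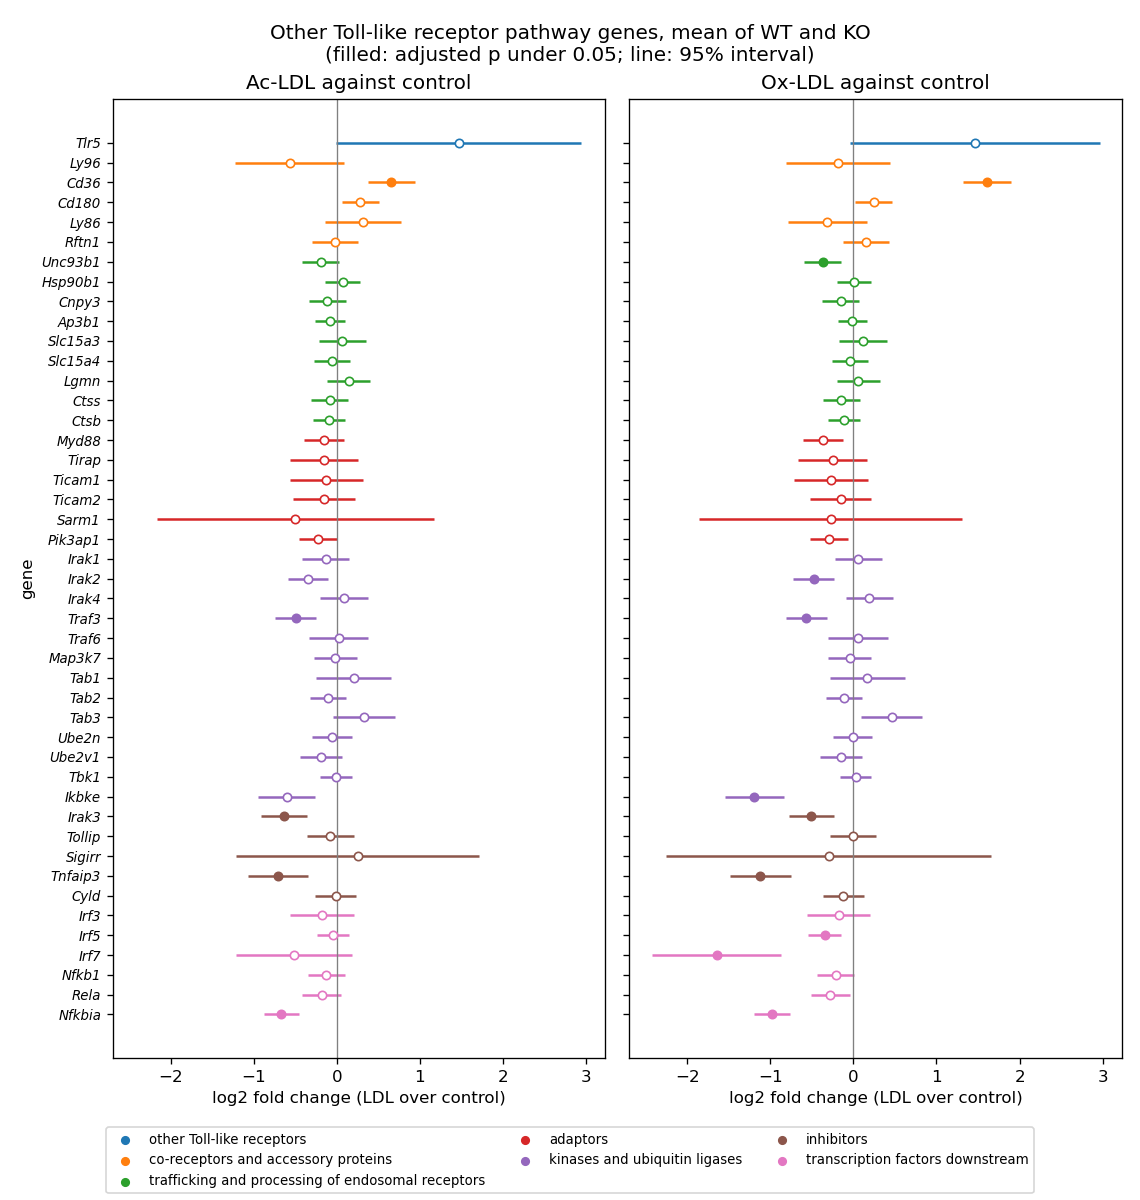
Log2 fold change (LDL over control, mean of WT and KO) of the 45 other pathway genes tested with 95% intervals, coloured by role; filled marks passed the edgeR test. Cd36 lies at 0.66 with Ac-LDL and 1.61 with Ox-LDL, and 9 filled genes lie left of 0 with Ox-LDL.

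The summed level of the macrophage markers also had a lower median with each LDL in both genotypes, and the sum was not tested. Csf1r and Adgre1 had the highest means among these markers (2234 and 1493 CPM over 18 libraries). The sum was 4084 to 6511 CPM in WT control (median 6424), 4082 to 5223 in WT Ac-LDL (median 5179) and 3320 to 5295 in WT Ox-LDL (median 4881), which overlapped. In KO it was 5515 to 6561 CPM in control, 4764 to 5414 in Ac-LDL medium and 3893 to 4812 in Ox-LDL medium, and both LDL groups lay below control without overlap. With Ox-LDL, in the average of both genotypes, Adgre1, which encodes F4/80, fell by 0.57 (edgeR adjusted p = 0.0329), and Mertk, a receptor for engulfed cells, rose by 0.56 (edgeR adjusted p = 0.0461). With Ac-LDL their differences were -0.35 and 0.52 (edgeR adjusted p = 0.385 and 0.127). Neutrophil markers summed to 57.6 to 107 CPM in WT control, 67.3 to 189 in WT Ac-LDL and 116 to 212 in WT Ox-LDL, and to 39.0 to 119, 20 to 52.8 and 50.6 to 95.4 in KO. The part of either in the values of the receptors was not tested. In bulk RNA, fewer cells of a type and less RNA per cell cannot be told apart.

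Over the 18 libraries, which share mice and media, the pattern of Tlr2 was most like those of Fgr (Pearson r = 0.95), Nfkbie (0.93) and Lpcat2 (0.92), among 6753 genes with a mean of at least 20 CPM. That of Tlr13 was most like R3hdm1 (0.91) and Nrp1 (0.90). Between members, r was 0.84 for Tlr7 and Tlr8, 0.74 for Tlr1 and Tlr2, 0.56 for Tlr2 and Cd14, and -0.78 for Tlr2 and Tlr13. These correlations describe the libraries and carry no test.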

How the data were processed

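Total RNA of BMDM was made into libraries with a stranded total RNA kit (SMARTer, Takara Bio), and reads were aligned to mm10 with STAR and quantified with Salmon, whose versions are not given in the sources used here. The deposited values are expected counts per gene, estimated by the authors with Salmon and merged over the 18 libraries; such estimates can move reads between similar transcripts. They were rounded to whole numbers. Genes were kept with filterByExpr of edgeR 4.0.16 (R 4.3.3; minimum count 2, minimum total 10), scaled by TMM, fitted by 1 quasi-likelihood model over 6 groups (12 residual degrees of freedom) and adjusted by Benjamini-Hochberg over the 12290 genes tested, with a threshold of 0.05. CPM use the TMM library sizes, and log2 CPM a prior count of 2. The averages give WT and KO equal weight. Numbers of mice that moved the same way describe the members only, since the share of all genes that did so was not computed. KO against WT was also tested on counts summed per mouse (12673 genes). Alternatives were DESeq2 1.42.0, scaling by library size, other filters, only the groups compared, the mouse as a block and leaving out each library, and the code was tested on simulated data. Sample labels name the mouse, so the 3 media of a mouse are paired: deviations from group means correlated in all 18 pairs of libraries of 1 mouse (r = 0.06 to 0.29, median 0.16), and in 14 of 18 by over 0.1, while same-numbered mice of different genotype did not (r from -0.02 to 0.04). The replicates are separate mice, and the counts of any pair within a group were further apart than sampling alone gives (chi-square over its degrees of freedom, 2.03 to 12.7). In the text the named genes were all members, every gene of the pathway lists called in an LDL comparison, Slc7a7, and the 3 genes most correlated with a called member; further genes are markers. A marker and a correlated gene, with the values that need them, are not reported here. The members and lists were chosen with earlier results of these data known. Coordinates are from GENCODE M21 (GRCm38).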

Additional observations from a re-analysis of the deposited data

How the results depend on the processing

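No member reversed a called direction under any alternative. Of 1070 recomputed member values, 1031 kept their side of the threshold, 36 newly passed and 3 were lost; 35 values that passed in neither fit had the other sign. The pairing by mouse, as a block, moved the number of members called from 1 to 4 in WT and from 2 to 5 in KO with Ox-LDL, from 1 to 3 in WT and from 1 to 2 in KO with Ac-LDL, from 2 to 4 in the Ac-LDL average, and from 0 to 1 in WT and 2 in KO for Ox-LDL against Ac-LDL; it changed no call of a member in the difference of responses. Between genotypes, whose mice differ, a block by mouse could not be fitted, and a block by replicate number changed no call of a member. In what follows, the share of all genes called under the same setting is in parentheses. Without a filter the numbers in WT and KO were 3 and 4 with Ox-LDL (1.52% and 2.21%), 2 and 2 with Ac-LDL (0.794% and 0.848%), and 1 and 1 for Ox-LDL against Ac-LDL (0.329% and 0.41%). With only the 2 groups compared, KO gave 4 with Ox-LDL (6.62%), 2 with Ac-LDL (1.74%) and 1 for Ox-LDL against Ac-LDL (0.538%), and DESeq2 gave 1 in each genotype for the last (0.0895% in WT and 0.155% in KO). Chosen after seeing the data, leaving out WT mouse 1 gave 2 in WT with Ox-LDL (1.96%) and 1 for KO Ox-LDL against Ac-LDL (0.199%), and leaving out the mice with Xist counts gave 0 in KO with Ac-LDL (0.238%) and 1 in the Ac-LDL average (0.901%). The causes were not tested. Without 1 library at a time, the numbers ran from 1 to 3 (WT) and 1 to 2 (KO) with Ox-LDL, 0 to 1 in each genotype with Ac-LDL, 4 to 5 in the Ox-LDL average and 1 to 2 in the Ac-LDL average, and the 4 calls of the Ox-LDL average held in 12 of 12 such fits. Depth limits Tlr1, Tlr3, Tlr6 and Tlr9, which had 6 to 45 counts per library. The order of Tlr2, Tlr8, Tlr7 and Tlr4 by level depended on the exon length used.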
